A study of Mus musculus with 18 samples.

Results

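The constant gene units of Ighg2b, Ighg2c and Igha were followed by 4C-seq in B cells from mouse spleen, with the bait in Eμ, the intronic enhancer of the Igh locus. These are the switch targets of the γ2b, γ2c and α isotypes, and they are not the genes that LPS with IL4 is known to direct switching to. Members were chosen by position: every restriction fragment end inside an annotated gene or in the interval upstream of it, as far as the neighbouring constant gene. That gave 216 fragment ends (93 for Ighg2b, 95 for Ighg2c and 28 for Igha) of 56916 ends with a read on chromosome 12 and 440025 on all chromosomes.

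The 18 libraries were prepared from mature CD43-negative B cells of the spleen, 3 for each of 6 groups, and the design asks whether Med1 changes contacts of the enhancer on activation. Cells labelled WT or Med1 Mutant were taken resting, or after 2 days in culture with LPS and IL4, or after 2 days with LPS alone. Med1 is a subunit of Mediator, a coactivator complex through which enhancers act on RNA polymerase II. The labels name neither the Med1 allele, a strain, an age or a Cre driver, nor say whether replicates were separate mice, so p-values measure only the spread between these libraries. In the model fits that spread is pooled in part over the regions or ends tested together. Contacts cannot show the loss of Med1 or the cell type. For 1 library, WT LPS+IL4 replicate 2, the growth protocol reads aCD40 and not LPS beside IL4, and titles of the WT resting and LPS+IL4 libraries contain the letters KO although their genotype label is WT.

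Class switch recombination joins the switch region upstream of Ighm to the switch region upstream of a downstream constant gene, so that the same variable region is made with a new isotype. Transcription from an I promoter, which lies before each switch region, opens the chosen gene, and the 3' regulatory region downstream of Igha drives several of these promoters. LPS alone is known to direct switching to Ighg2b and Ighg3, LPS with IL4 to Ighg1 and Ighe, interferon γ favours Ighg2c and TGFβ favours Igha.

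4C-seq counts what was ligated to the bait fragment after DpnII and Csp6I digestion. The bait was amplified by inverse PCR with this primer pair, which the study's design text gives and which sets the viewpoint for every value here. Lower case is used throughout because no base is singled out.
primer 1: tctgtcctaaaggctctgaga
primer 2: gaacacagaagtatgtgtatgga

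In mm10 coordinates the most read end in all 12 libraries with read numbers lay at chr12:113426025-113426048, and distances are measured from it. The Ighg2b unit spanned chr12:113304314-113326540, with the annotated gene of 3620 bp (gene ID 16016) followed by 18607 bp of upstream interval. The Ighg2c unit spanned chr12:113287389-113304313, with a gene of 1544 bp (gene ID 404711) and 15381 bp upstream of it. The Igha unit spanned chr12:113256204-113269262, with a gene of 4033 bp (gene ID 238447) and 9026 bp upstream. All genes are transcribed from the minus strand, and their 5' ends lay 118092 bp (Ighg2b), 137093 bp (Ighg2c) and 165789 bp (Igha) from the bait. Fragment ends were unevenly placed: Ighg2c had 5.61 known ends per kb, Ighg2b 4.18 and Igha 2.14. The longest stretch without a known end ran from 2154 to 6100 bp upstream of the Ighg2b gene, from 3830 to 6521 bp upstream of Ighg2c and from 412 to 2680 bp upstream of Igha. Contacts inside those stretches could not be seen.

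The 12 resting and LPS+IL4 libraries held 2470497 to 21074434 reads, of which 1016043 to 10193114 lay on chromosome 12 more than 5 kb from the bait; a unit's level is given as its percentage of the latter, called its share. PCR reads carry no molecular identifiers, so read numbers overstate independent ligations. Read numbers were not used for the 6 LPS libraries, whose tables give positions of covered ends, so for them the measure is the number of known ends with a read, and their depth is unknown. A split of the 12 libraries that is not in the labels bears on these values: 86 ends held 4.16% to 6.32% of those reads in WT replicate 3 and Med1 mutant replicates 2 and 3, at rest and with LPS+IL4, and at most 0.0103% in the other 6 libraries. Of these ends, 8 lay in the Ighg2b unit, 8 in Ighg2c and 3 in Igha, and in that set they held 9.64%, 10.9% and 8.67% of the unit's reads. Each of these library sets held both genotypes and both cultures, but one had 2 WT to 1 mutant replicate and the other 1 to 2.

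Ighg2b contacts rose on activation with LPS+IL4 in both genotypes. The Ighg2b share in WT resting libraries was 2.49%, 2.38% and 2.61% in replicates 1 to 3, and in WT LPS+IL4 libraries 3.41%, 3.57% and 3.73%. In Med1 mutant cells it was 2.12%, 2.49% and 2.34% at rest and 3.38%, 3.09% and 3.33% with LPS+IL4. All 6 activated libraries lay above all 6 resting ones, and in each genotype 38.1% of the 21 elements tested over the locus were higher without overlap. The increase was 1.43-fold in WT (log2 change 0.52 ± 0.08 SE, n = 3 against 3, adjusted p = 6.5e-05 by edgeR's quasi-likelihood test with Benjamini-Hochberg adjustment over those elements) and 1.41-fold in the mutant (0.50 ± 0.08 SE, adjusted p = 0.000101 by the same edgeR test). Within the library sets the log2 ratio of mean shares was 0.52 and 0.51 in WT and 0.67 and 0.41 in the mutant. The WT estimate was 0.52 without WT LPS+IL4 replicate 2, the library with aCD40 in its growth protocol.

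**Figure D1:**
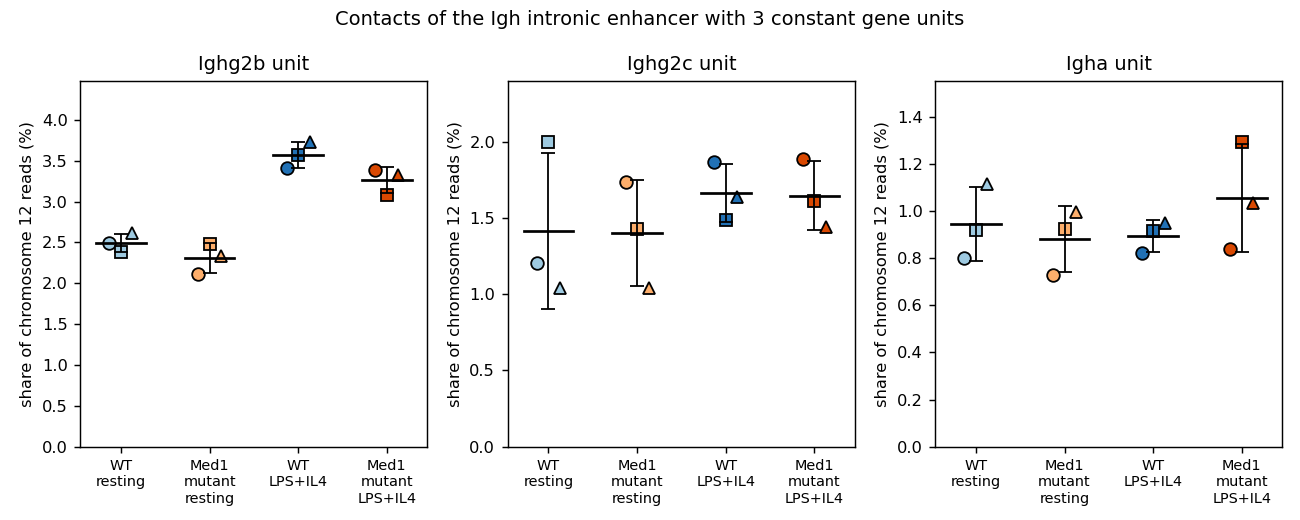
Share of chromosome 12 reads more than 5 kb from the bait (%, vertical axis from 0) in the Ighg2b, Ighg2c and Igha units, for the 4 groups with read numbers on the horizontal axis; points are single libraries (circle, square and triangle for replicates 1, 2 and 3), horizontal lines are means and bars are SD (n = 3). In Ighg2b all activated libraries lie above all resting ones, whereas in Ighg2c and Igha the groups overlap.

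Ighg2c contacts varied more between replicates than between groups. The Ighg2c share was 1.20%, 2.00% and 1.04% in WT resting libraries and 1.87%, 1.49% and 1.64% in WT LPS+IL4 libraries. In the mutant it was 1.73%, 1.43% and 1.04% at rest and 1.89%, 1.61% and 1.44% with LPS+IL4. WT resting replicate 2 stood highest of all 12 libraries, and resting and activated ranges overlapped in both genotypes. The log2 change on activation was 0.24 ± 0.24 SE in WT (adjusted p = 0.424, edgeR) and 0.23 ± 0.24 SE in the mutant (adjusted p = 0.388, edgeR), so a change as large as that of Ighg2b was not excluded by this spread. Without WT resting replicate 2 the WT estimate was 0.57 and passed the threshold (adjusted p = 0.0333, edgeR). Within the library sets it was 0.07 and 0.66 in WT and 0.12 and 0.31 in the mutant.

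Igha, the constant gene farthest from the enhancer and the neighbour of the 3' regulatory region, had no change that passed the test. The Igha share was 0.800%, 0.918% and 1.11% in WT resting libraries and 0.820%, 0.914% and 0.948% in WT LPS+IL4 libraries. In the mutant it was 0.727%, 0.922% and 0.995% at rest and 0.837%, 1.29% and 1.04% with LPS+IL4. The groups overlapped in both genotypes, with the highest value in mutant LPS+IL4 replicate 2, the deepest library. The log2 change on activation was -0.08 ± 0.19 SE in WT (adjusted p = 0.810, edgeR) and 0.26 ± 0.19 SE in the mutant (adjusted p = 0.268, edgeR). Without mutant LPS+IL4 replicate 2 the mutant value was 0.09, and without WT resting replicate 3 the WT value was 0.06. Within the sets it was 0.01 and -0.23 in WT and 0.20 and 0.28 in the mutant.

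Thus 1 of the 3 units was called on activation in WT, where the share of all 21 elements called was 57.1% (38.1% higher), and 1 of 3 in the mutant, where it was 61.9% (38.1% higher). The 3 units together did not exceed that background, which counts the 3' regulatory region both whole and in pieces and includes the units themselves. Of the 5 other constant genes, in WT 2 rose (Ighg1, log2 change 0.92, and Ighe, 0.64) and 1 fell (Ighd, -1.23). In the mutant 2 rose (Ighg1, 0.65, and Ighe, 0.34) and 2 fell (Ighd, -1.11, and Ighg3, -0.35). The median log2 change over Ighg2b, Ighg2c and Igha was 0.24 in WT and 0.26 in the mutant, against 0.05 and 0.12 over all elements.

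**Figure D2:**
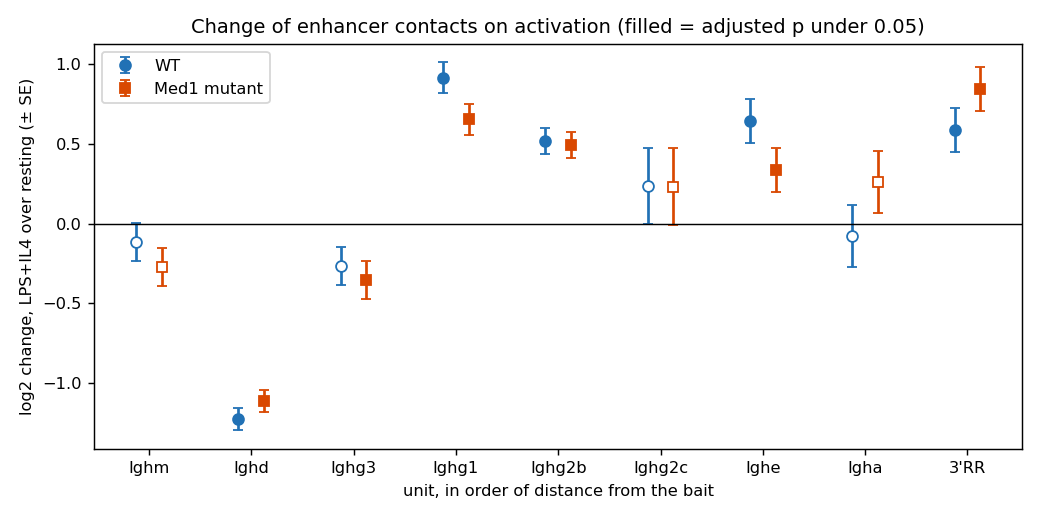
Log2 change of the share on activation, LPS+IL4 over resting (vertical axis, points are edgeR estimates and bars their SE, 3 libraries per group), for the 8 constant gene units and the 3' regulatory region (3'RR) in order of distance from the bait; circles are WT and squares Med1 mutant, filled where the adjusted p was under 0.05. Ighg2b is filled in both genotypes at 0.52 and 0.50, and Ighg2c and Igha are open in both.

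Whether these units moved otherwise than the IL4 targets was tested on the ratio of reads within each library, in which library size cancels, by an exact two-sided permutation of culture labels within genotypes (400 arrangements, smallest possible p 0.005, Benjamini-Hochberg over the 6 pairs). Ighg2b had 1.35 to 1.55 reads per Ighg1 read in WT resting libraries and 1.04 to 1.16 with LPS+IL4. In the mutant the ratio was 1.30 to 1.55 at rest and 1.26 to 1.28 activated. Ighg2b therefore rose less than Ighg1, by 0.28 on the log2 scale over both genotypes (exact permutation p = 0.005, adjusted p = 0.03; -0.40 in WT and -0.16 in the mutant). Against Ighe, Ighg2b did not differ beyond the spread (log2 difference 0.02, exact permutation p = 0.89, adjusted p = 0.89), with -0.13 in WT and 0.16 in the mutant.

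Igha had 0.43 to 0.66 reads per Ighg1 read in WT resting libraries and 0.25 to 0.30 with LPS+IL4, with no overlap. In the mutant the ratio was 0.49 to 0.58 at rest and 0.32 to 0.53 activated. The change of Igha was below that of Ighg1 by a log2 difference of -0.70 (exact permutation p = 0.01, adjusted p = 0.03; -0.99 in WT and -0.41 in the mutant). For Igha against Ighe the difference was -0.40 (exact permutation p = 0.05, adjusted p = 0.075; -0.71 in WT and -0.09 in the mutant). Ighg2c differed from Ighg1 by -0.52 (exact permutation p = 0.04, adjusted p = 0.075; -0.63 in WT and -0.40 in the mutant) and from Ighe by -0.22 (exact permutation p = 0.41, adjusted p = 0.492; -0.36 in WT and -0.08 in the mutant), and neither passed the threshold. Without mutant LPS+IL4 replicate 1 the adjusted p of both called pairs was 0.06. With ends capped at the 99th percentile the difference of Ighg2b from Ighg1 was -0.50, and on covered ends it was -0.076 and not called.

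Per length of unit, Ighg2b was the highest of the 3 units in every group. In WT resting libraries its mean share was 0.112% per kb ± 0.00517 (SD, n = 3), against 0.0835% ± 0.0303 for Ighg2c and 0.0723% ± 0.0121 for Igha. The ranges of neighbours overlapped from Ighg2b down to Ighg1, which was the lowest of the 8 constant genes at 0.0546% per kb. With LPS+IL4 in WT, Ighg2b reached 0.161% per kb ± 0.00720, beside Ighg3, an LPS target, at the same 0.161% ± 0.0215 and above Ighg1 (0.103%), Ighe (0.101%), Ighg2c (0.0984%) and Igha (0.0685%). There the ranges of Ighg2b and Ighg1 did not overlap, nor did those of Ighg2c and Igha. In activated mutant libraries Ighg2b stood at 0.147% per kb ± 0.00707, above Ighg3 (0.117%) without overlap, and Ighg2c (0.0973%), Ighg1 (0.0832%) and Igha (0.0808%) followed Ighe (0.105%) with overlapping neighbours.

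Of the parts of the Ighg2b unit, the upstream interval rose in both genotypes, and the annotated gene did not pass the test. The upstream share was 2.23%, 2.12% and 2.30% in WT resting libraries and 3.20%, 3.22% and 3.45% in WT LPS+IL4 libraries. In the mutant it was 1.98%, 2.25% and 2.13% at rest and 3.10%, 2.82% and 3.07% activated. The upstream part rose by a log2 change of 0.57 ± 0.07 SE in WT (adjusted p = 2.3e-10, edgeR over 16 unit parts, of which 25% were called higher) and 0.50 ± 0.07 SE in the mutant (adjusted p = 1.1e-08, edgeR; 12.5% called higher). Those 16 include the Ighm upstream part, which had a log2 change of 0 with an SE of 0 and could not be called. The annotated Ighg2b gene, with 17 ends, had a mean share of 0.278% ± 0.0326 (SD) at rest and 0.283% ± 0.0710 activated in WT, a log2 change of 0.03 ± 0.25 SE. In the mutant it had 0.196% ± 0.0518 and 0.266% ± 0.0148, a log2 change of 0.44 ± 0.25 SE (adjusted p = 0.170, edgeR). The difference between the gene and upstream parts was not tested. Because edgeR pooled spread over the 16 parts, the p-values of parts do not rest on 3 libraries a group alone. With TMM scaling over the 16 parts the mutant estimate for the upstream part was 0.09 (adjusted p = 0.536, edgeR), and with ends capped at the 99th percentile 0.27 (adjusted p = 0.0667, edgeR).

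In bins of 2 kb measured from the gene's 5' end, the largest increases of the Ighg2b unit lay 12 to 14 kb and 14 to 16 kb upstream. At 12 to 14 kb the share was 0.676%, 0.703% and 0.693% in WT resting and 0.917%, 1.03% and 0.957% in WT LPS+IL4 libraries. The mutant had 0.526%, 0.735% and 0.553% at rest and 0.780%, 0.766% and 1.07% activated. At 14 to 16 kb the share was 0.396%, 0.387% and 0.345% in WT resting and 0.813%, 0.726% and 0.713% in WT LPS+IL4 libraries, against 0.408%, 0.242% and 0.306% and then 0.736%, 0.449% and 0.455% in the mutant. In both bins activated libraries lay above resting ones within each genotype. The bins were picked after their values were seen and carry no test. With at most 10 kb upstream counted for each gene, the WT increase of Ighg2b was 0.25 and no longer called (adjusted p = 0.177, edgeR), whereas the mutant value was 0.42 (adjusted p = 0.0236, edgeR).

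**Figure D3:**
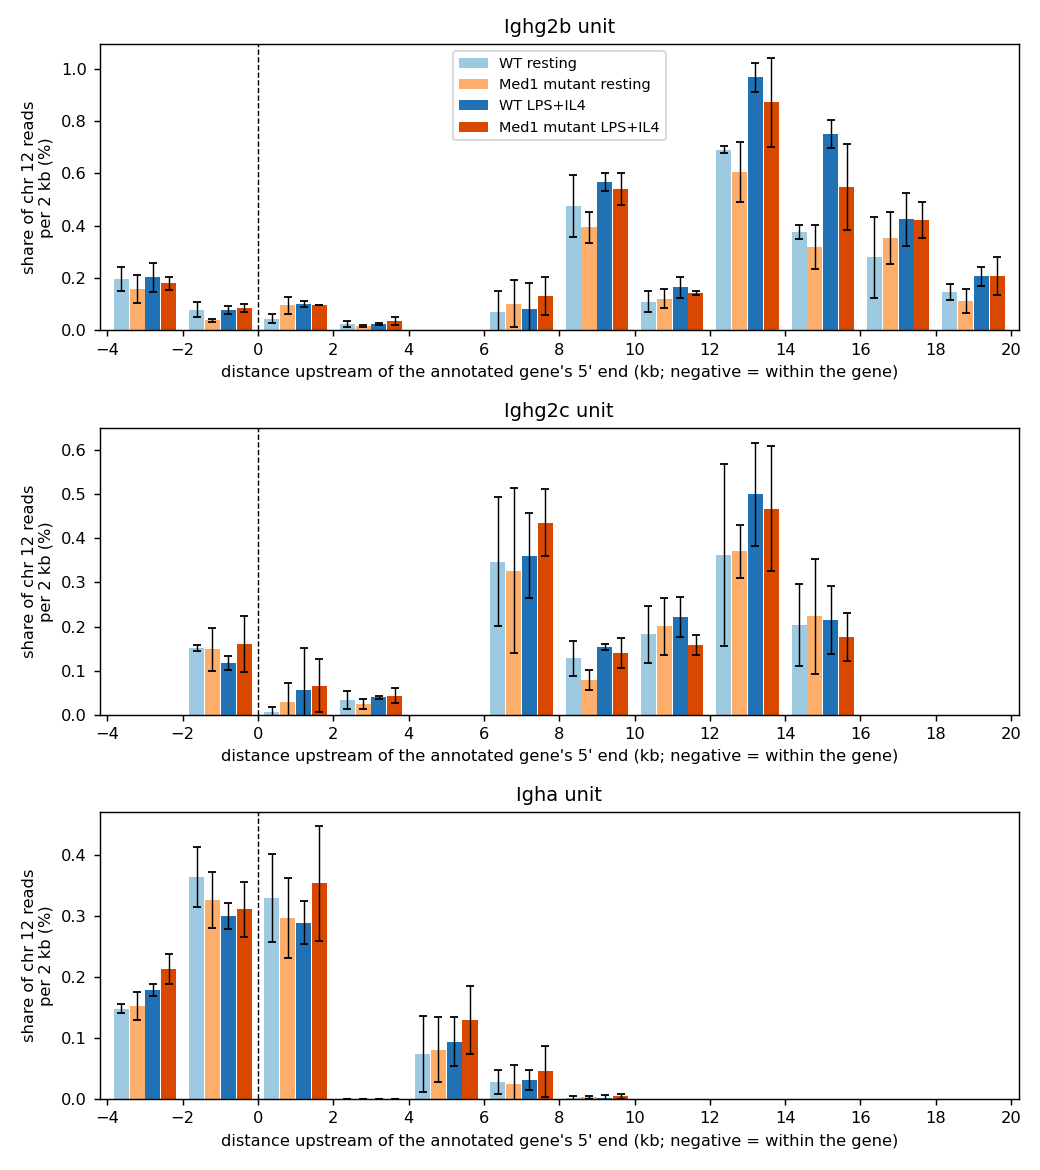
Mean share of chromosome 12 reads per 2 kb (%, bars from 0, error bars SD over 3 libraries) against distance upstream of the annotated gene's 5' end (kb, negative within the gene) for the Ighg2b, Ighg2c and Igha units, coloured by genotype and culture; bins with no known end are empty. Ighg2b bars rise with LPS+IL4 most at 12 to 16 kb, Ighg2c bars have wide error bars, and Igha reads lie mostly within 2 kb upstream and in the gene.

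Ighg2c reads also lay mostly upstream. The upstream part held 1.06%, 1.85% and 0.878% in WT resting libraries and 1.76%, 1.35% and 1.53% with LPS+IL4 (log2 change 0.29 ± 0.23 SE, adjusted p = 0.377, edgeR). Its gene part held 0.145%, 0.149% and 0.159% at rest and 0.110%, 0.137% and 0.107% activated in WT (-0.36 ± 0.34 SE, adjusted p = 0.424, edgeR). The replicate spread of Ighg2c in WT at rest thus lay in the upstream part. In mutant resting libraries both parts varied, the gene from 0.109% to 0.203% and the upstream part from 0.933% to 1.53%. Igha reads were divided more evenly, and in WT the gene held 0.476%, 0.559% and 0.501% at rest and 0.454%, 0.486% and 0.495% activated. The upstream part of Igha held 0.324%, 0.359% and 0.612% in WT at rest and 0.366%, 0.429% and 0.453% activated. In mutant LPS+IL4 replicate 2, which had the highest Igha share, the upstream part held 0.715% and the gene 0.578%. No part of Ighg2c or Igha was called by edgeR in any of the 5 comparisons. Of the 16 parts, 31.2% and 37.5% were called on activation in WT and in the mutant, 6.25% between genotypes at rest, 6.25% with LPS+IL4 and 0% in the interaction. The Ighm upstream part, which could not be called, counts among the 16.

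A few ends held much of each unit's reads, most of all in Igha. The most read end held 9.80% of the mean share of Ighg2b, 15.9% of Ighg2c and 29.9% of Igha, and the 5 most read ends held 37.5%, 48.2% and 80.0%. Of the known ends, 45 of 93 in Ighg2b, 24 of 95 in Ighg2c and 15 of 28 in Igha were read in all 12 libraries. The leading Ighg2b end, at position 113320898, lay 12965 bp upstream of the gene, and the third, at 113320926, lay directly beside it. The leading end held 0.279%, 0.309% and 0.211% in WT resting and 0.447%, 0.423% and 0.225% in WT LPS+IL4 libraries. In the mutant it held 0.133%, 0.185% and 0.133% at rest and 0.371%, 0.221% and 0.486% activated. The end that ranked next, 14296 bp upstream at 113322229, held 0.204%, 0.243% and 0.157% in WT resting and 0.449%, 0.336% and 0.348% in WT LPS+IL4 libraries, without overlap. Mutant libraries held 0.248%, 0.114% and 0.113% at rest and 0.371%, 0.207% and 0.238% activated, with overlap.

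The leading Ighg2c end, 12542 bp upstream at 113301474, ranged from 0.0789% to 0.273% in WT resting libraries and from 0.211% to 0.407% with LPS+IL4. The next, 6521 bp upstream at 113295453, held 0.153%, 0.328% and 0.138% in WT resting libraries, so that replicate 2 was high here as in the whole unit. In Igha the leading end lay 186 bp upstream of the gene at 113260422 and the next inside the gene, at -1434 bp on the same scale, at 113258802. The end inside the gene held 0.226%, 0.275% and 0.253% in WT resting and 0.195%, 0.239% and 0.229% in WT LPS+IL4 libraries, and the groups overlapped.

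End by end, 157 of the 216 ends had the mean of at least 20 reads needed for a test (75 in Ighg2b, 61 in Ighg2c and 21 in Igha). None was called on activation in WT or in the mutant by edgeR's quasi-likelihood test, where 0.465% and 0.395% of 4301 tested ends were called. At an unadjusted p under 0.05 there were 6 and 11 (3.82% and 7.01%, against 7.58% and 7.70% of all tested ends), and DESeq2 called 3 and 5, where it called 6.84% and 8.09% of all tested ends. In the genotype comparisons at rest and with LPS+IL4 and in the interaction, edgeR called 0 of the 157 ends (0% of all tested ends in each), with 4, 2 and 4 at an unadjusted p under 0.05 (2.55%, 1.27% and 2.55%, against 7.81%, 3.93% and 7.70% of all tested ends) and 2, 0 and 1 called by DESeq2 (8.56%, 2.84% and 7.32% of all tested ends). The DESeq2 calls in the units were thus a smaller share than over the locus. The Ighg2b estimates leaned one way: 59 of 75 were positive in WT and 58 of 75 in the mutant, against 2137 and 2293 of 4301 over all ends. For Ighg2c 38 of 61 and 40 of 61 were positive, and for Igha 9 of 21 and 15 of 21. The ends of a unit come from the same libraries and are not replicates, so these counts add no support beyond the unit's own change. Activated and resting libraries did not overlap, with activated higher, at 14 of 75 Ighg2b ends in WT and 10 of 75 in the mutant, where 6.93% and 6.63% of all tested ends did so. For Ighg2c the number was 4 of 61 in WT and 5 of 61 in the mutant, and for Igha 2 of 21 in each.

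The ends that DESeq2 called are named here after their values were seen. On activation, the end 14268 bp upstream of Ighg2b at 113322201 was called higher in WT (log2 change 1.29, DESeq2 adjusted p = 0.0401) and in the mutant (1.38, DESeq2 adjusted p = 0.0207). It lies directly beside the end at 113322229. The end at 113309437, 1504 bp upstream of Ighg2b, was called higher on activation in WT (2.05, DESeq2 adjusted p = 0.00316). Its share was 0.0238%, 0.00699% and 0.0123% in WT resting libraries but 0.0920%, 0.0502% and 0.0752% in mutant resting libraries, and 0.0395% to 0.0712% in the 6 activated ones. It was the one Ighg2b end that DESeq2 called between genotypes at rest (2.45, adjusted p = 0.000119) and the one end called in the interaction (-2.68, DESeq2 adjusted p = 0.00765). The end at 113323378, 15445 bp upstream, was called higher in WT (1.26, DESeq2 adjusted p = 0.0151). The others, at 113304362, 113307024 and 113310059 in Ighg2b on activation in the mutant and at 113265841 in Igha (on activation in the mutant, and between genotypes at rest), were at or near 0 in several libraries.

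No difference between Med1 mutant and WT cells passed the test in any of the 3 units. With LPS+IL4 the mutant share of Ighg2b (3.09% to 3.38%) lay below the WT share (3.41% to 3.73%) without overlap, as in 23.8% of the elements, with a log2 difference of -0.13 ± 0.08 SE (adjusted p = 0.35, edgeR). At rest the ranges overlapped, at -0.11 ± 0.08 SE (adjusted p = 0.407, edgeR). Over both cultures the Ighg2b difference was -0.12 (exact permutation p = 0.02, adjusted p = 0.105 over 21 elements, none of which, 0%, was called). Without the 86 ends of one library set and 1 such end of the other it was -0.13 and passed the threshold (exact permutation, adjusted p = 0.035). Within the library sets the Ighg2b difference was -0.20 and -0.11 at rest and -0.05 and -0.22 with LPS+IL4.

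For Ighg2c the genotype difference was -0.01 ± 0.24 SE at rest and -0.02 ± 0.24 SE with LPS+IL4 (adjusted p = 0.962 and 0.950, edgeR). Within the library sets it was 0.11 and 0.25 at rest, both of the opposite sign, and 0.17 and -0.10 with LPS+IL4, so that Ighg2c had no settled direction. For Igha the difference was -0.10 ± 0.19 SE at rest and 0.24 ± 0.19 SE with LPS+IL4 (adjusted p = 0.811 and 0.504, edgeR). Within the sets it was -0.24 and -0.22 at rest and -0.05 and 0.30 with LPS+IL4. With the library set as a block the Ighg2c values were 0.11 and 0.09 and the Igha values -0.21 and 0.11, none called by edgeR. None of the 21 elements was called at rest (0%, edgeR), and 3 were called lower with LPS+IL4 (14.3%), among them Ighg3 (-0.46) and Ighg1 (-0.31) of the 5 other constant genes. The response to activation did not differ between genotypes beyond the spread in Ighg2b (-0.02 ± 0.11 SE), Ighg2c (-0.00 ± 0.34 SE) or Igha (0.34 ± 0.28 SE), with adjusted p of 0.969, 0.991 and 0.741 by edgeR and 0% of the elements called. The mutant response of Ighg1 was lower by 0.26 ± 0.14 SE and was not called either (adjusted p = 0.741, edgeR).

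Covered ends brought in the culture with LPS alone, which is known to direct switching to Ighg2b. Of 93 Ighg2b ends, WT LPS libraries covered 86, 76 and 83 and mutant LPS libraries 78, 82 and 69. With LPS+IL4 the numbers were 78, 77 and 88 in WT and 74, 87 and 80 in the mutant, and at rest 70, 68 and 81 in WT and 66, 75 and 75 in the mutant. Of 95 Ighg2c ends, WT LPS libraries covered 71, 61 and 67 and mutant LPS libraries 64, 68 and 49, against 56, 59 and 78 and 55, 79 and 76 with LPS+IL4. Of 28 Igha ends, the 18 libraries covered 18 to 26, and LPS libraries 23, 20 and 23 in WT and 23, 24 and 19 in the mutant. Most known ends of Ighg2b were thus covered in every group, which leaves little room for this measure to rise, and mutant LPS replicate 3 was the lowest LPS library in all 3 units.

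**Figure D4:**
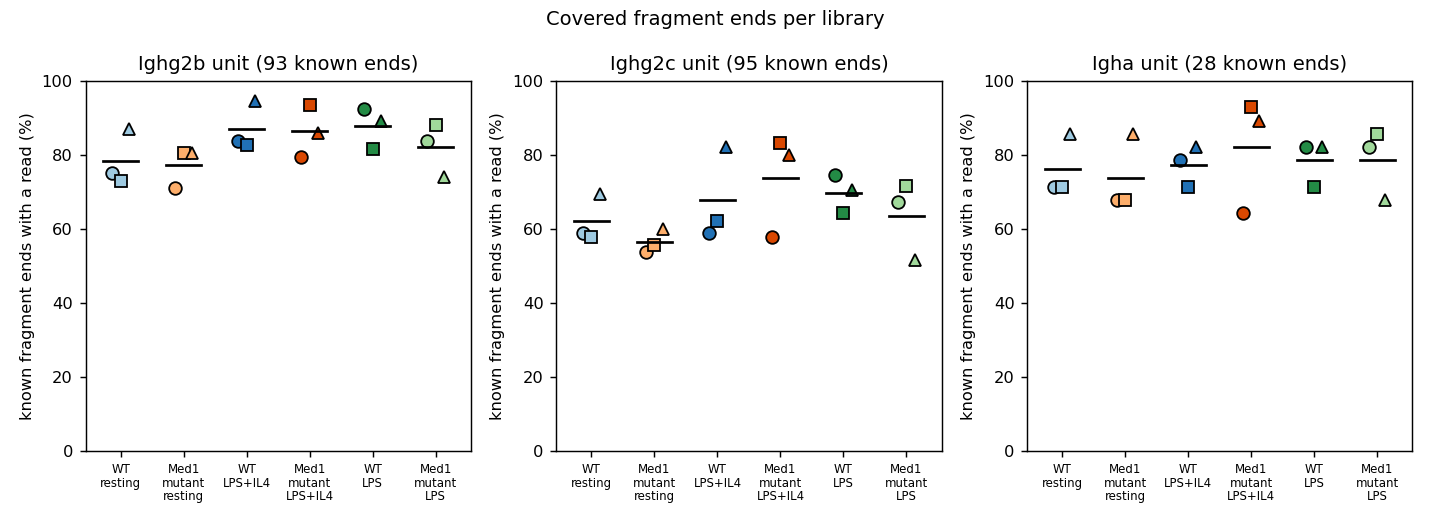
Known fragment ends with at least one read (%, vertical axis from 0) in the Ighg2b, Ighg2c and Igha units for the 6 groups on the horizontal axis; points are single libraries (circle, square and triangle for replicates 1, 2 and 3) and lines are means (n = 3). The LPS groups overlap the LPS+IL4 groups in each unit, and mutant LPS replicate 3 is the lowest LPS library.

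As a fraction of all covered ends on chromosome 12, no unit was called between genotypes with LPS: the log2 difference was 0.17 ± 0.14 SE for Ighg2b, 0.12 ± 0.14 SE for Ighg2c and 0.26 ± 0.13 SE for Igha (adjusted p = 0.496, 0.639 and 0.496, limma; 0% of 21 elements called). Without WT LPS replicate 2 the Igha difference was 0.33 and called (adjusted p = 0.0387, limma). Over 11 alternatives the genotype difference with LPS ranged from -0.65 to 0.25 for Ighg2b and from -0.39 to 0.20 for Ighg2c. In each of these 2 units the sign was kept in 10 of 11 and nothing was called. For Igha the sign was kept in all 11 (0.04 to 0.33). LPS against LPS+IL4 gave 0.29, 0.33 and 0.30 in WT, none called (adjusted p = 0.129, 0.109 and 0.109, limma; 4.76% of elements called). Without WT LPS+IL4 replicate 3 the Ighg2c value was 0.49 and called (adjusted p = 0.0223, limma). In the mutant it gave 0.51, 0.37 and 0.53, all 3 called (adjusted p = 0.00754, 0.0255 and 0.00287, limma), where 66.7% of the elements were called, all higher. Without mutant LPS+IL4 replicate 2, the deepest library, Ighg2b was at 0.33 and Ighg2c at 0.24 and neither was called (adjusted p = 0.0672 and 0.151, limma). The Ighg2c call was also lost without mutant LPS replicate 1 (0.30, adjusted p = 0.119, limma) or replicate 3 (0.41, adjusted p = 0.0522, limma). The number of covered ends itself was no higher there (76.3 against 80.3 for Ighg2b), and on the log odds of coverage the values were -0.52, -0.75 and -0.50, none called. The LPS libraries were deposited and aligned separately from the others, so culture and processing cannot be told apart. LPS libraries covered 80, 78 and 78 of the 86 ends of the library split in WT and 78, 78 and 57 in the mutant. With LPS+IL4 the numbers were 32, 33 and 86 in WT and 31, 86 and 85 in the mutant. What this split adds to the values of LPS against LPS+IL4 was not tested. Over all 3 cultures the log2 genotype difference in the fraction of covered ends was 0.08 for Ighg2b, 0.07 for Ighg2c and 0.13 for Igha (exact permutation, 8000 arrangements, p = 0.345, 0.386 and 0.0708; adjusted p = 0.502, 0.503 and 0.487; 4.76% of elements called). The mean number of covered Ighg2b ends itself was lower in the mutant in each culture. It was 72 against 73 in WT at rest, 80.3 against 81 with LPS+IL4 and 76.3 against 81.7 with LPS. For Ighg2c and Igha the mean number was lower in the mutant at rest and higher with LPS+IL4.

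The fraction of covered ends and the share of reads disagreed on activation. Covered Ighg2b ends went from a mean of 73.0 to 81.0 in WT and from 72.0 to 80.3 in the mutant, and with every library reduced to one depth from 70.5 to 76.5 and from 71.8 to 78.1. As a fraction of all covered ends on chromosome 12, however, Ighg2b had a log2 change of -0.25 in WT (adjusted p = 0.236, edgeR) and -0.45 in the mutant (adjusted p = 0.0103, edgeR). The number of covered Ighg2b ends thus rose while its fraction fell, as the divisor rose by more. That divisor, the covered ends of the whole chromosome, was 8450 to 15660 in activated libraries and 7221 to 8953 in resting ones. What lay behind its rise was not tested.

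As a description of likeness, the 3 elements whose log2 share correlated best with each unit over the 12 libraries were found. Pearson's r is given within the 6 resting and the 6 activated libraries, so that differences between the cultures do not enter it. For Ighg2b the 3 elements were Ighg1 (0.50 and 0.83), the hs1,2 enhancer (0.59 and -0.33) and the whole 3' regulatory region (0.81 and -0.45). For Igha they were the hs3a enhancer (0.50 and 0.75), the whole 3' regulatory region (0.66 and 0.67) and the hs3b enhancer (0.47 and 0.65). For Ighg2c they were the proximal VH genes (-0.07 and 0.67), Ighg2b (-0.53 and -0.02) and Ighg1 (-0.83 and 0.18). Shares in one library sum over the same total, and the hs pieces lie inside the 3' regulatory region. Among these 3 elements per unit, r was positive in both cultures for all of Igha's, only for Ighg1 with Ighg2b, and for none with Ighg2c. Outside them the signs differed. Igha had 0.71 and -0.80 with the hs4 enhancer and 0.08 and -0.40 with hs1,2, both in the neighbouring region. Ighg2b was positive in both cultures with hs4 (0.92 and 0.24) and the middle VH genes (0.69 and 0.53), among others. Ighg2c was so with the near 3' flank (0.12 and 0.82), among others.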

How the data were processed

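Read numbers per 24-bp fragment end are counts that the authors deposited for the resting and LPS+IL4 libraries, and start and end positions of covered ends (other values, without read numbers) are what the authors deposited for the LPS libraries. Per the submitters' processing notes, reads were aligned to mm10, with Bowtie for the former and Bowtie2 for the latter; versions are not given in the sources used here. Gene positions came from RefSeq (GRCm38.p6).

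Ends up to 5 kb from the bait were not counted. Counts summed over 21 elements, 16 unit parts or single ends (mean of at least 20 reads) were tested with edgeR 4.0.16 (robust quasi-likelihood, all 12 libraries in one fit, no TMM). For the comparisons with LPS alone, log2 fractions of covered ends (pseudocount 1) were tested with limma 3.58.1. Covered ends in place of reads on activation were tested with edgeR. DESeq2 1.42.0 was an alternative. p-values are two-sided, Benjamini-Hochberg adjusted, with a threshold of 0.05. The fits were tested on simulated data. Named were the 3 units and their parts, some of the 5 most read ends of each unit and called ends. The other constant genes in counts and the 3 most alike elements per unit were named too, and the ends called by DESeq2 alone were added. The alternatives were another scaling, capped ends, covered ends, library-set or replicate block, and libraries left out one at a time; the limit of 10 kb upstream was chosen after seeing the data. Units, lists and tests were chosen with earlier results of these data known. The hs pieces of the 3' regulatory region were placed at approximate distances. No sequence of the units was used here.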

Additional observations from a re-analysis of the deposited data

How the results depend on the processing

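Of 647 values recomputed under alternatives for 71 results, 617 kept their direction and their side of the threshold or were called in neither setting; 74 of these changed sign while not called. The called activation of Ighg2b kept its direction and call in both genotypes under TMM scaling (0.38 and 0.34), DESeq2, capped ends (0.30 and 0.31), either library-set treatment and every library left out (0.48 to 0.55 in WT, 0.44 to 0.55 in the mutant); TMM shifted the median element by -0.14 and -0.16. With covered ends in place of reads it was -0.25 and -0.45, and with at most 10 kb upstream 0.25 in WT. Replicate numbers were not shown to pair the samples. Same-number deviations correlated at 0.003 to 0.21 between cultures and -0.04 to 0.09 between genotypes. Different-number deviations correlated at -0.12 to 0.08 between cultures and -0.11 to 0.06 between genotypes. The library sets follow the number within a genotype, though, and the permutation tests use no pairing. With the replicate block Ighg2b was 0.52 and 0.50; the block lowered the called ends of the locus from 20 to 0 in WT and from 17 to 4 in the mutant and left those of the units at 0. Leaving out libraries gave ranges of 0.056 to 0.57 for Ighg2c activation in WT, 0.058 to 0.41 in the mutant, -0.18 to 0.06 and 0.09 to 0.40 for Igha, 0.20 to 0.33 for Igha between genotypes with LPS, and for LPS against LPS+IL4 0.21 to 0.49 for Ighg2c in WT, 0.33 to 0.66 for Ighg2b in the mutant and 0.24 to 0.45 for Ighg2c in the mutant. For that comparison the log odds gave -0.52, -0.75 and -0.50 in the mutant. Against Ighg1, leaving out libraries gave -0.31 to -0.25 for Ighg2b, -0.65 to -0.34 for Ighg2c and -0.80 to -0.61 for Igha, and against Ighe -0.49 to -0.32 for Igha; capped ends gave -0.50 for Ighg2b against Ighg1, -0.59 for Ighg2c against Ighg1 and -0.43 for Igha against Ighe, all called, and covered ends gave -0.076 for Ighg2b and -0.15 for Igha against Ighg1, neither called, and 0.01 for Ighg2c. Leaving out the ends particular to either library set gave -0.13 for the genotype difference of Ighg2b. For single parts, TMM gave -0.38 for the Igha gene in WT, and capped ends 0.62 for the Ighg2b gene in the mutant, both called. DESeq2 called 3, 5, 2 and 1 ends of the units on activation in WT and the mutant, between genotypes at rest and in the interaction, where edgeR called 0. Except where fewer ends or samples entered, the cause was not tested. Precision is limited by 3 libraries a group, uneven end density and unknown LPS depth.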
